A study of Homo sapiens with 20 samples.

Results

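The enzymes described here set the inhibitory phosphate on CDK1, the kinase that drives cells into mitosis. They are the phosphatases CDC25A, CDC25B and CDC25C and the kinases WEE1 and PKMYT1, 5 of the 18417 genes that could be tested. They were chosen by name from the array annotation, in which they had 7 of the 33297 features, with earlier results of these data known. A gene with several features is represented by its brightest, judged by the mean of all 20 arrays. That choice arose for WEE1 alone, whose feature used had a mean of 4.42 on the log2(intensity + 1) scale, against 3.23 and 1.76 for those set aside.

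CDK1 bound to cyclin B is held inactive while WEE1, a nuclear kinase, and PKMYT1, a kinase of the endoplasmic reticulum and Golgi membranes, keep its active site phosphorylated. CDC25 phosphatases remove those phosphates. CDC25A also acts on CDK2 at the start of S phase and is degraded after DNA damage, CDC25B begins the activation of CDK1 in G2, and CDC25C takes part in the loop by which CDK1 completes its own activation and is held back by 14-3-3 proteins. In hormone-responsive cells CDC25B has also been described as a coactivator of steroid receptors.

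RNA was measured on 20 Affymetrix human gene arrays from LNCaP, an androgen-responsive human prostate cancer line. By its title, the series asked which transcripts induced by dihydrotestosterone (DHT), a potent androgen, vary with cell cycle phase. The CDT group had 72 h in the medium named CDT in the labels and ethanol for 3 h (n = 3). The CDT + DHT group had the same 72 h and then 10 nM DHT for 3 h (n = 3). All 5 arrested groups also received 10 nM DHT for 3 h, after growth that the labels give as hormone-proficient. Early G1 cells had 0.5 µM PD-0332991, an inhibitor of CDK4 and CDK6, for 24 h (n = 3), and late G1 cells had 5 µg/mL roscovitine, an inhibitor of several CDKs, for the same time (n = 3). Early S cells were held with 2 µg/mL aphidicolin, which blocks DNA polymerases, for 24 h (n = 2), and late S cells with 1 mM hydroxyurea, an inhibitor of ribonucleotide reductase, for 24 h (n = 3). G2/M cells had aphidicolin for 15 h, were washed and then had 50 ng/mL nocodazole, a microtubule poison, for 9 h (n = 3). Arrested cells without DHT are not analysed here, so drug, hormone and medium cannot be told apart in an arrest against CDT, nor drug and medium in an arrest against CDT + DHT. The phase names are those of the labels. Each group was bulk RNA of 1 cell line, in which fewer cells of a kind and less RNA per cell cannot be told apart.

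Of 8 markers of LNCaP cells, 6 could be tested, with means of 5.85 to 9.11 over the arrays. Those of basal cells (2 of 3 tested) lay at 3.46 to 3.77, of stroma (5) at 1.32 to 3.98 and of leukocytes (5) at 2.29 to 3.24. The median intensity of an array was 5.44 to 9.09. Some arrays stood apart from their group. The first principal component of deviations from group means, over 5879 brighter genes, held 49.9% of the variance within groups. It is signed, with late S replicate 1, CDT replicate 1 and early G1 replicate 2 farthest in the direction taken as positive and late S replicate 2 farthest in the other, and is called the within-group component below.

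Promoter sequences are shown for the CDC25 genes because CDC25B was low on the same arrays as other genes of the G2 and mitotic program, and promoters of that program often carry a cell cycle homology region (CHR; searched as TTTGAA or TTCGAA) and CCAAT boxes (CCAAT). Forms of the E2F site, common in genes of the G1/S transition, were searched in 3 forms, namely TTCGCGC, then TTGGCGC, and last TTCCCGC. All were searched on both strands in the RefSeq windows of GRCh38.p14, 300 bases from 250 before to 50 after an annotated start. Windows were held for 3 of the 5 genes, 9 windows in all. Of 35116 windows of the same length, 16.4% held either CHR form, 1.45% TTCGAA, 15.2% TTTGAA, 34.6% CCAAT and 11% any of the E2F forms. The windows below hold the CHR letters for CDC25B and CDC25C, and the single window for CDC25A. Capitals mark the matched letters.
CDC25B, chr20:3796060-3796359, plus strand: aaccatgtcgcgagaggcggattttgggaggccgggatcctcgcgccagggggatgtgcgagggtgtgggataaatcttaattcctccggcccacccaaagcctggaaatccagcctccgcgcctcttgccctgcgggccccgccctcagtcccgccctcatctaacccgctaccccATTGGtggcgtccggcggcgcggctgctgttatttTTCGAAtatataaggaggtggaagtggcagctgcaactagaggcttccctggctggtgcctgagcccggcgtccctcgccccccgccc
CDC25C, chr5:138331755-138332054, minus strand: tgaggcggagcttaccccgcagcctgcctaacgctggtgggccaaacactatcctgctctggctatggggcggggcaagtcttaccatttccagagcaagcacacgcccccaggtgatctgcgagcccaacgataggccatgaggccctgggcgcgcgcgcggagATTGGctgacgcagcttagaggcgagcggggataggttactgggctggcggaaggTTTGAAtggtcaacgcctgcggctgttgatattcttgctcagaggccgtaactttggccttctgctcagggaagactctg
CDC25A, chr3:48188368-48188667, minus strand: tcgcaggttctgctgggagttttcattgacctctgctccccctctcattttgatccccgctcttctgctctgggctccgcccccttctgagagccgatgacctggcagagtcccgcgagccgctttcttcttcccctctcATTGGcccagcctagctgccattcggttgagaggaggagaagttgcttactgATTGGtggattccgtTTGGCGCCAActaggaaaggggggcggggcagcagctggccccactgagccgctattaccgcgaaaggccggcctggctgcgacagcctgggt

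In the CDC25B window TTCGAA began at position -38 from the start and a CCAAT on the other strand at -73. The CDC25C window had TTTGAA at -30 and a CCAAT on the other strand at -85. A window of another CDC25C start overlaps this one and holds the same TTTGAA. The CDC25A window had no CHR letters. It had TTGGCGC at -43 and, overlapping it, on the other strand at -40, with CCAAT on the other strand at -110 and -58. Of the 3 other windows of CDC25B, 1 held TTCCCGC, another held CCAAT and the last held no match. The 2 remaining windows of CDC25C overlap each other and hold the same TTCCCGC. The shares above are for single windows, while CDC25B and CDC25C had 4 windows each. These matches describe letters only. Which start is used in LNCaP cells was not measured.

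CDC25B was the member that set the groups apart. In late G1 its level was 2.46, 1.31 and 1.82 on the 3 arrays, as log2(intensity + 1), the scale of every level below. The lowest of the other 17 arrays, early G1 replicate 1, had 3.57. Late G1 arrays were thus the lowest of all, with no overlap, and the only ones on which CDC25B lay below the array's median feature. Of all genes, 1.28% were lower without overlap in late G1 against the other arrests, 10.1% against CDT and 14% against CDT + DHT. In intensity the late G1 mean was 2.83 ± 1.53 (SD, n = 3) against 94.3 ± 11.7 in CDT (n = 3).

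**Figure D1:**
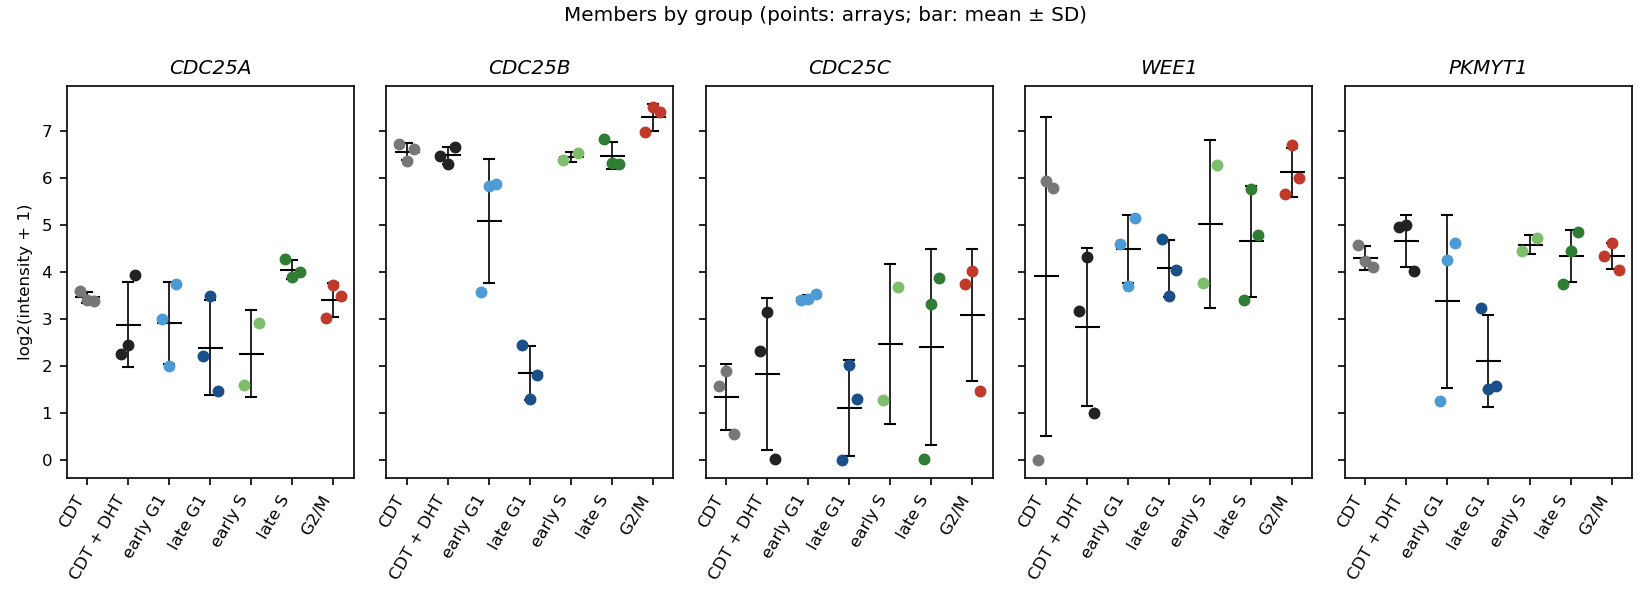
Level of each gene in log2(intensity + 1) on every array (points), with the mean and SD of each of the 7 groups (bars); early S has 2 arrays and the other groups 3. CDC25B in late G1 lies at 1.31 to 2.46, below all other arrays, while WEE1 in CDT runs from 0.01 to 5.94.

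The highest CDC25B levels were those of G2/M, at 6.97, 7.51 and 7.41. No array of another group reached them. CDT had 6.72, 6.37 and 6.61, CDT + DHT 6.48, 6.30 and 6.67, late S 6.82, 6.31 and 6.31, and early S 6.38 and 6.53. These 4 groups, with means of 6.46 to 6.57, overlapped each other and could not be ordered. Early G1 came below them at 3.57, 5.83 and 5.87, its spread set by replicate 1. The order of means was therefore G2/M (7.30 ± 0.29, SD), then the 4 middle groups, then early G1 (5.09 ± 1.31) and late G1 (1.86 ± 0.58). No arrays overlapped across these steps, and the share of all genes with such steps was not counted. Differences between groups made up 92.9% of the variance of CDC25B over the 20 arrays, against a median of 34.3% over all genes.

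A moderated F test of the 7 groups (limma, Benjamini-Hochberg over all 18417 genes, as for every adjusted p below) called CDC25B at an adjusted p of 0.000448 and none of the other 4 members. It called 0.418% of all genes. Among the 5 arrests CDC25B was again called (adjusted p = 0.000209), as were 0.255% of genes. Both tests hold the late G1 arrays, whose CDC25B difference from CDT was known when these genes were chosen. PKMYT1 had an adjusted p of 0.415 over 7 groups and 0.549 over the arrests, and the adjusted p of CDC25A, CDC25C and WEE1 was 0.627 or higher in both tests. With array weights PKMYT1 was called as well in the test of 7 groups (adjusted p = 0.0477), but so were 1073 of the 18417 genes, against 77 without them.

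Late G1 was compared with the mean of the other 4 arrests. CDC25B fell by 4.47 ± 0.44 (SE), a 22.1-fold lower value of intensity + 1, with an adjusted p of 3.17e-05. It was the 1 member of 5 called, where 0.706% of all genes were called in either direction and 0.69% lower. With a pseudocount of 16 in place of 1 the difference was -2.40, since the late G1 intensities lie in the range that this constant flattens. The call held in 30 of 30 alternative settings, with adjusted p from 3.38e-08 to 0.00124.

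Against CDT + DHT, which shares hormone and dose with late G1 but not the medium, so that drug and medium cannot be told apart, CDC25B fell by 4.62 ± 0.55 (adjusted p = 0.000548, 0.516% of genes called). Against CDT the difference was -4.71 ± 0.55 (adjusted p = 0.000963, 0.103% called). That last difference was known when these genes were chosen, and the 3 comparisons share the late G1 arrays, so none of them supports another. With a pseudocount of 16 they were -2.48 and -2.55. Fitted on the compared groups alone, neither passed, at adjusted p of 0.074 against CDT + DHT and 0.173 against CDT. That setting called 0 of all genes in either comparison.

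Both G1 arrests had the lowest CDC25B, and they also differed from each other in level. Late G1 lay 3.23 ± 0.55 below early G1, with no overlap of arrays (6.75% of genes were lower without overlap). The adjusted p was 0.0641, and limma called 0 genes (0% of those tested) in this comparison, with 1307 at an unadjusted p under 0.05. Without early G1 replicate 1 the difference was -3.99 and passed (adjusted p = 0.00291), and it passed without late S replicate 1 (adjusted p = 0.0380). Quantile normalization, a filter on dim genes, a trended robust variance prior and array weights also brought it past the threshold, at adjusted p of 0.0438, 0.00525, 0.00271 and 0.0167. From 1 to 21 genes were called in these 6 settings. With a pseudocount of 16 it was -1.47 (adjusted p = 0.0767).

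**Figure D2:**
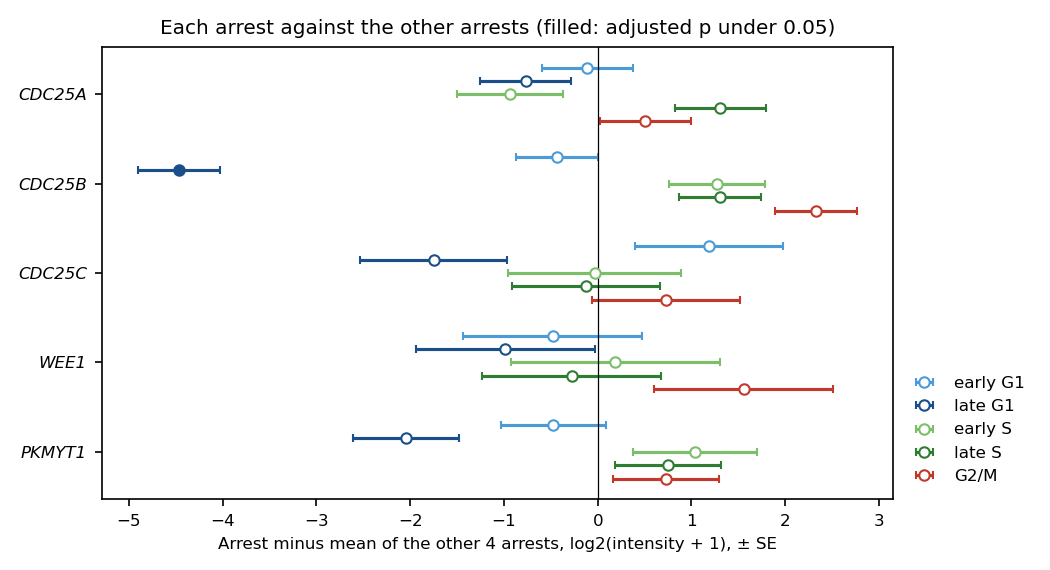
Difference of each arrest from the mean of the other 4 arrests (points, log2 scale) with its standard error (bars); filled points have an adjusted p under 0.05. CDC25B in late G1, at -4.47, is the single filled point. PKMYT1, CDC25C and WEE1 also have their lowest points in late G1, and CDC25A has its lowest in early S.

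G2/M lay 2.33 ± 0.44 above the other arrests for CDC25B, with no overlap of arrays (0.353% of genes were higher without overlap) and an adjusted p of 0.0733, where 0.0271% of genes were called. The very low late G1 arrays are part of that mean. With late G1 left out of the other arrests, an alternative chosen after seeing the data, the difference was 1.29 ± 0.46 (adjusted p = 1). The late S difference fell likewise from 1.31 ± 0.44 to 0.20 ± 0.46, and that of early S from 1.27 ± 0.51 to 0.17 ± 0.52. Early G1 went from -0.44 ± 0.44 to -1.66 ± 0.46. None of these 3 arrests had a call for any member in either version, where limma called 0.0271% of genes in late S and 0% in early S and early G1, with 1275, 714 and 455 genes at an unadjusted p under 0.05.

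The G2/M difference of 2.33 did pass in 5 settings: a pseudocount of 16 (1.60, adjusted p = 0.00391), the filter on dim genes (0.0174), the trended robust prior (0.0059), array weights (0.0108) and without early G1 replicate 1 (0.0331), with 6 to 25 genes called in place of 5. Against single groups it was smaller. G2/M lay above CDT by 0.73 ± 0.55, above CDT + DHT by 0.81 ± 0.55 and above early S by 0.84 ± 0.61, with adjusted p of 0.836, 0.509 and 1. Arrays did not overlap in any of the 3, as for 6.64%, 15.1% and 8.27% of genes, shares that are common in these comparisons.

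Early G1 was lower in CDC25B than CDT by 1.48 ± 0.55 (adjusted p = 0.948) and than CDT + DHT by 1.40 ± 0.55 (adjusted p = 0.567), with no overlap in either, as for 7.07% and 8.71% of genes. Without early G1 replicate 1 these differences were -0.72 and -0.64. DHT for 3 h in CDT medium left CDC25B at a difference of -0.08 ± 0.55, and no member was called there. Limma called 0 genes (0%) in that comparison, and 1263 had an unadjusted p under 0.05.

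CDC25A, the phosphatase that acts earliest in the cycle, had its highest levels in late S, at 4.28, 3.90 and 3.997. Early S, the other replication block, had 1.61 and 2.92, and late G1 2.22, 3.49 and 1.48. CDT lay at 3.59, 3.41 and 3.40 and G2/M at 3.02, 3.73 and 3.50. CDT + DHT reached 3.93 on replicate 3, which stood between 2 late S arrays, with 2.27 and 2.45 on the others, and early G1 ran from 2.01 to 3.76. Late S (mean 4.06 ± 0.20, SD) did not overlap the next group by mean, CDT (3.47 ± 0.11), as for 4.01% of genes, and every later neighbour in the order overlapped.

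Late S lay above the other arrests in CDC25A by 1.31 ± 0.48, without overlap of arrays (0.505% of genes), and the adjusted p was 0.692. Hydroxyurea against aphidicolin gave 1.80 ± 0.68 (adjusted p = 0.775), again without overlap, as for 8.69% of genes, where 0.00543% were called. The difference of late S from CDT was 0.59 ± 0.61 and from CDT + DHT 1.17 ± 0.61, with 0.0977% and 0.0706% of genes called, and the second passed with array weights (1.49, adjusted p = 0.0363), a setting that called 1776 genes there in place of 13. In the other arrests CDC25A differed from CDT by -1.07 ± 0.61 in late G1, -1.20 ± 0.68 in early S, -0.54 ± 0.61 in early G1 and -0.05 ± 0.61 in G2/M, none of them called (0.0326% of genes were called in early S and 0.00543% in early G1). Its between-group share of variance was 50.3%.

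CDC25C, the phosphatase of the CDK1 feedback loop, was dim. It lay below the array's median feature on 13 of the 20 arrays. Early G1 was the one group with close values, at 3.41, 3.42 and 3.54. CDT had 1.58, 1.89 and 0.56, and late G1 0.00, 2.03 and 1.30.

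Elsewhere CDC25C values differed widely within a group. Late S had 0.02, 3.32 and 3.89, CDT + DHT 2.32, 3.16 and 0.03, G2/M 3.75, 4.03 and 1.49, and early S 1.28 and 3.69. All neighbours in the order of means overlapped, from early G1 (3.46) through G2/M (3.09) to late G1 (1.11).

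Early G1 was higher in CDC25C than CDT by 2.11 ± 0.98 (adjusted p = 0.955), and late G1 against early G1 differed by -2.35 ± 0.98 (adjusted p = 0.621), without overlap in either. Of all genes, 3.21% were higher without overlap in early G1 against CDT and 6.75% lower without overlap in late G1 against early G1. Late G1 lay 1.75 ± 0.79 below the other arrests (adjusted p = 0.434). With a pseudocount of 16 these differences were 0.55, -0.57 and -0.46. The deviations of CDC25C from its group means ran against the within-group component, with r = -0.50 over 20 arrays, a description with no test, and 0.69 with the array's median. Their part in these differences was not tested.

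WEE1, the nuclear kinase that opposes the CDC25 enzymes, was highest in G2/M, at 5.67, 6.70 and 5.998. CDT had 0.01, 5.94 and 5.79, so that 1 array of 3 lay at the floor. CDT + DHT had 3.18, 4.32 and 1.02. Every G2/M array thus exceeded every CDT + DHT array, while G2/M and CDT overlapped.

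The other groups had WEE1 means between those of G2/M and CDT + DHT, and some of their arrays lay within the range of either. Early S had 3.77 and 6.29, late S 3.41, 5.77 and 4.79, early G1 4.61, 3.72 and 5.16, and late G1 4.71, 3.50 and 4.04. In the order of means, from G2/M (6.12 ± 0.53, SD) to CDT + DHT (2.84 ± 1.68), all neighbours overlapped.

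WEE1 was 3.28 ± 1.19 higher in G2/M than in CDT + DHT, with an unadjusted p of 0.0125 and an adjusted p of 0.211. No overlap of arrays was also seen for 15.1% of genes in this comparison, and limma called 0.44%. Against CDT the difference was 2.21 ± 1.19 (adjusted p = 0.757), where 0.109% of genes were called, and without CDT replicate 1 it was 0.26 ± 0.91. Without CDT + DHT replicate 3 the difference from CDT + DHT was 2.37 ± 1.28 (adjusted p = 0.483). Against the other arrests G2/M lay 1.56 ± 0.95 higher (adjusted p = 0.997) and late G1 0.99 ± 0.95 lower (adjusted p = 0.801).

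WEE1 deviations from group means ran against the within-group component, with r = -0.83 over 20 arrays, the largest in size among the members (-0.50 for CDC25C, 0.38 for CDC25B, -0.04 for CDC25A and 0.01 for PKMYT1). CDT replicate 1 and CDT + DHT replicate 3, the arrays lowest in WEE1, were among the 4 with the highest scores on it. Without those 4 arrays the G2/M difference was 0.26 ± 0.69 from CDT and 2.37 ± 0.69 from CDT + DHT (adjusted p = 0.116). Between-group differences made up 33.1% of the variance of WEE1, close to the all-gene median of 34.3%.

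**Figure D3:**
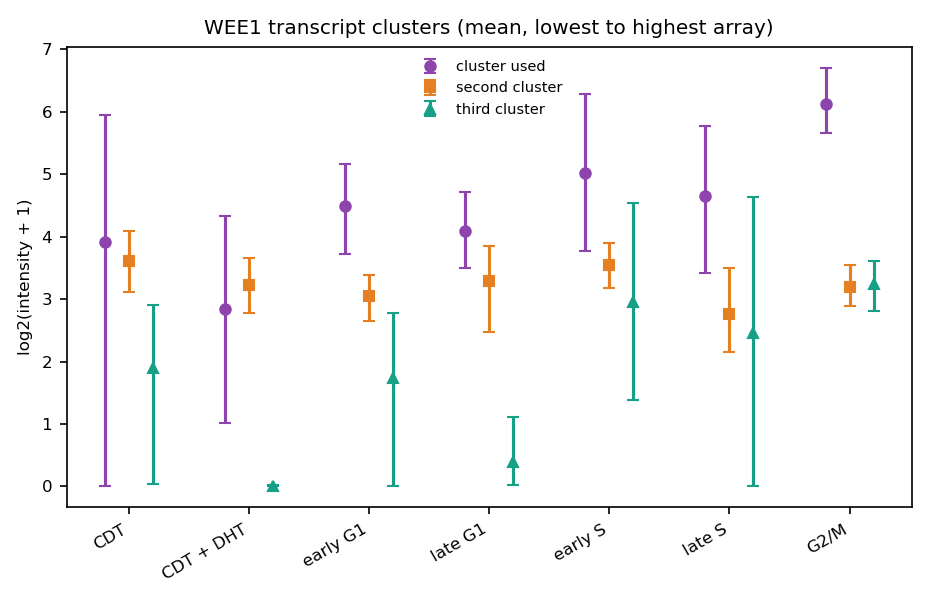
Mean log2(intensity + 1) of the 3 WEE1 features in each group (points), with bars from the lowest to the highest array. The feature used ranges widely in CDT (0.01 to 5.94), the second has means of 2.77 to 3.61, and the third lies near 0 on all CDT + DHT arrays and at 2.81 to 3.60 in G2/M.

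Of the 3 WEE1 features, the third had the same 3 highest groups by mean and the same lowest as the feature used. The second did not. The second had group means of 2.77 (late S) to 3.61 (CDT), with 3.20 ± 0.34 in G2/M. The third had its highest mean in G2/M, at 3.24 ± 0.40, and 0.01 ± 0.01 in CDT + DHT, the groups that were highest and lowest by the feature used. In late G1 the third had 0.40 ± 0.62.

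PKMYT1, the membrane-bound kinase, was low in late G1, at 3.25, 1.53 and 1.58. One other array was as low, early G1 replicate 1 at 1.27, against 4.26 and 4.61 on its fellow arrays. All remaining arrays lay at 3.76 or above. CDT + DHT had 4.96, 5.01 and 4.02, CDT 4.58, 4.23 and 4.10, early S 4.45 and 4.73, late S 3.76, 4.46 and 4.85, and G2/M 4.35, 4.62 and 4.06.

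Late G1 lay 2.54 ± 0.70 below CDT + DHT in PKMYT1 (unadjusted p = 0.00182, adjusted p = 0.105) and 2.18 ± 0.70 below CDT (adjusted p = 0.286). The arrays did not overlap in either, as for 14% and 10.1% of genes. Against the other arrests the difference was -2.05 ± 0.56 (adjusted p = 0.115), and against early G1 -1.26 ± 0.70 (adjusted p = 0.797). PKMYT1 therefore did not pass in any of them, and the call turned on early G1 replicate 1 and on the setting. Without that array the difference was -2.31 ± 0.43 from the other arrests (adjusted p = 0.0143) and -2.54 ± 0.53 from CDT + DHT (adjusted p = 0.0398). With array weights it passed in both (adjusted p = 0.0263 and 0.00745), where 377 genes were called in place of 130 and 1079 in place of 95. With a pseudocount of 16 it was -1.04 from CDT + DHT and passed (adjusted p = 0.0441, 443 genes called), and -0.79 from the other arrests and -0.81 from CDT, where it did not.

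**Figure D4:**
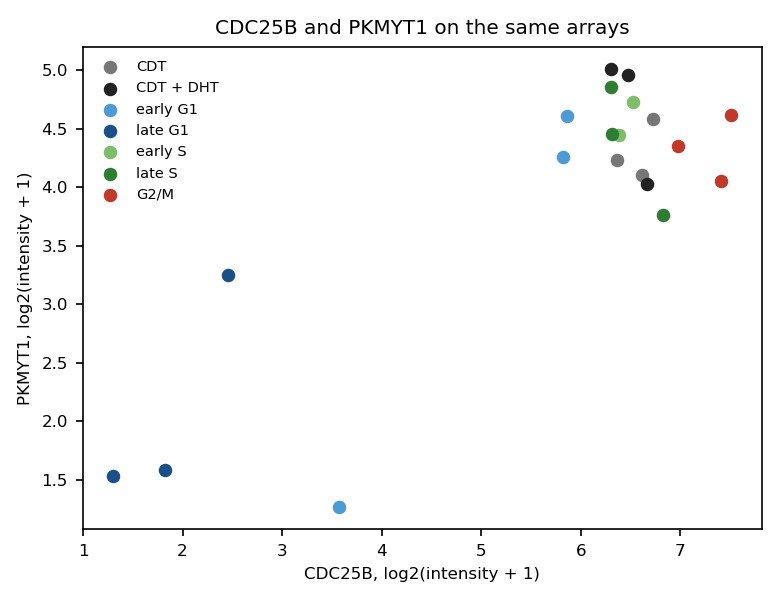
PKMYT1 against CDC25B on the same 20 arrays, both as log2(intensity + 1), coloured by group. The 3 late G1 arrays and early G1 replicate 1 (3.57 for CDC25B, 1.27 for PKMYT1) lie apart at the lower left, and the other 16 arrays form 1 cloud.

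CDC25B and PKMYT1, which act in opposite directions on CDK1, were low on the same arrays. Pearson's r was 0.85 and Spearman's rho 0.29 over 20 arrays that share platform and processing. After removal of group means r was 0.79, and without late G1 it was 0.72 over 17 arrays, in which early G1 replicate 1 is the low point of both. The other 9 pairs of members had r of 0.04 to 0.44, the highest for CDC25C with WEE1. These are descriptions, with no test.

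The genes most like CDC25B across the 20 arrays, among 5877 brighter genes, were FOXM1, a transcription factor of the G2 program, with r = 0.95, ATF5, a basic leucine zipper factor, with 0.93, and BIRC5, which encodes survivin of the chromosomal passenger complex, with 0.92. Spearman's rho was 0.72, 0.62 and 0.66. Without the 2 arrays farthest from the CDC25B median, both of late G1, r was 0.88, 0.87 and 0.83. Without any late G1 array r was lower, at 0.78, 0.66 and 0.60. Within groups it was 0.57, 0.49 and 0.18, so most of the likeness lay in group means. FOXM1 had 2.93 ± 0.57 in late G1, 4.95 ± 0.79 in early G1 and 6.60 ± 0.38 in G2/M (SD, n = 3), the same 3 places in its order as CDC25B. BIRC5 had 4.47 ± 0.12, 6.92 ± 0.41 and 8.23 ± 0.29.

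For the other members the likest genes were of other kinds. PKMYT1 was most like PPP1R9B (r = 0.89), LASP1 (0.89) and ALDH4A1 (0.89), each of which had its lowest group mean in late G1. WEE1 was most like TIMM21 (0.93), PRRC2C (0.93) and SRP54 (0.92), and here r within groups was as high, at 0.96, 0.91 and 0.92, so the likeness lay between arrays of 1 group. CDC25C was most like MIPEP (0.83), COQ2 (0.80) and DLAT (0.80), and CDC25A like SH3BGRL (0.74), GDF11 (0.67) and TARBP2 (0.67). High r within groups was not particular to WEE1. It was 0.79 to 0.83 for CDC25C, 0.72 to 0.83 for PKMYT1 and 0.444 to 0.715 for CDC25A. All 20 arrays share their processing, and arrays that stand apart enter every such value.

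The genes around these enzymes were counted by role against the other arrests. In late G1, 4 of 8 mitotic entry drivers were called lower and 0 higher, where 0.69% of all genes were called lower. The median difference of the 8 was -2.21 against -0.09 over all genes, with 6 below 0 and 2 above. PLK1, the kinase that activates CDC25 enzymes and marks WEE1 for degradation, fell by 3.74 ± 0.44 (adjusted p = 0.000245). FOXM1 fell from a mean of 5.93 over the other arrests to 2.93 (SE of the difference 0.42, adjusted p = 0.00134), MYBL2, its partner in the late cell cycle program, by 3.06 ± 0.56 (adjusted p = 0.0117) and AURKA, which activates PLK1, by 2.95 ± 0.51 (adjusted p = 0.00669). Leaving out 1 late G1 array, replicate 1 or 3, ended the calls of MYBL2 (adjusted p = 0.0946 and 0.13) and AURKA (0.0545 and 0.0737), while PLK1 and FOXM1 passed in all 30 settings.

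Of 9 cyclins, CDKs and their subunits, 2 were called lower in late G1 and 0 higher, where 0.69% of all genes were called lower. All 9 lay below 0, with a median of -1.12. CCNB1, the cyclin of CDK1, fell by 1.78 ± 0.38 (adjusted p = 0.0323) and CCNB2 by 2.56 ± 0.56 (adjusted p = 0.0361). Both calls were close to the threshold and were lost in 8 and 13 of 30 settings. CCNB1 lost its call without any 1 of the late G1 arrays, early S replicate 2, G2/M replicate 2 or early G1 replicate 3 (adjusted p up to 0.196). CCNB2 lost it without late G1 replicate 2 or 3, early S replicate 2, late S replicate 3, any 1 of the G2/M arrays, early G1 replicate 1 or 3, or CDT + DHT replicate 1 or 2 (up to 0.271). CDK1 itself, the target of the enzymes described here, differed by -2.44 ± 0.64 (adjusted p = 0.0918).

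The 11 genes of CDC25 and WEE1 turnover and 14-3-3 binding had a median of 0.03 in late G1, with 7 above 0 and 4 below. Of these, 1 was called lower and 0 higher, where 0.69% of all genes were called lower. The gene called was SFN, the 14-3-3 sigma gene whose product holds CDK1 in the cytoplasm after DNA damage. It fell by 5.37 ± 0.47 (adjusted p = 1.16e-05). Of 10 checkpoint genes, which act on CDC25 and WEE1 through CHEK1 and CHEK2, none was called (median -0.53), nor was any of 3 CDK-activating kinase genes (median 0.66) or 3 CDK inhibitors (median -1.21). The lists were drawn up with earlier results of these data known, so their counts describe the late G1 arrays and nothing more.

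**Figure D5:**
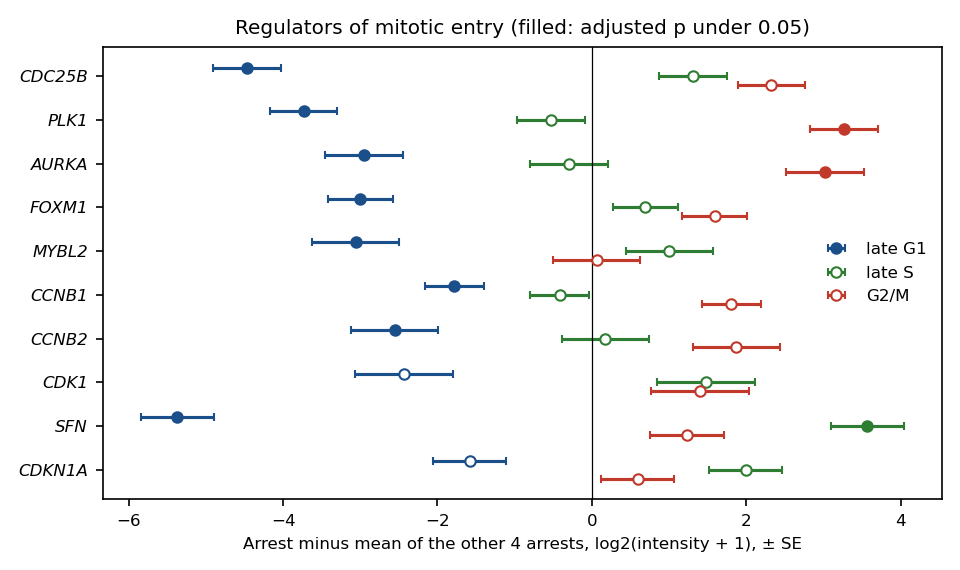
Difference of late G1, late S and G2/M from the mean of the other 4 arrests (points, log2 scale, with standard errors) for CDC25B and genes around it; filled points have an adjusted p under 0.05. In late G1 CDC25B (-4.47) lies with PLK1 (-3.74), MYBL2 (-3.06) and AURKA (-2.95), and in G2/M the filled points are PLK1 (3.26) and AURKA (3.03).

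In G2/M 2 of 8 mitotic entry drivers were called higher against the other arrests, where 0.0271% of genes were called, and the other lists had none. PLK1 rose by 3.26 ± 0.44 (adjusted p = 0.00407) and AURKA by 3.03 ± 0.51 (adjusted p = 0.0404). With late G1 left out of the other arrests both were above the threshold, at 2.49 ± 0.46 (adjusted p = 0.0809) and 2.44 ± 0.53 (adjusted p = 0.267). PLK1 also lost its call without G2/M replicate 2 (adjusted p = 0.0869), and AURKA in 13 of 31 settings (adjusted p up to 0.435), among them without either early S array, any 1 of the G2/M arrays, late S replicate 3, early G1 replicate 3, CDT replicate 3, CDT + DHT replicate 1 or late G1 replicate 1 or 3. CCNB1 differed by 1.81 ± 0.38 (adjusted p = 0.198). Against CDT + DHT, AURKA rose by 3.34 (adjusted p = 0.0301), a call lost in 7 of 30 settings, each G2/M and each CDT + DHT array left out among them.

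In late S, SFN rose by 3.57 ± 0.47 (adjusted p = 0.0037), the 1 gene called of the 44 measured in these lists, and with late G1 left out it differed by 2.37 ± 0.49 (adjusted p = 0.313). Its call was also lost without late S replicate 3 (adjusted p = 0.0702). The levels of SFN were 8.30 ± 0.10 in late S, 7.48 ± 0.49 in early S and 6.44 ± 0.43 in G2/M, against 1.16 ± 0.61 in late G1 and 2.75 ± 1.34 in CDT. Late G1 and CDT arrays overlapped in SFN. Against CDT, SFN rose by 4.73 in early S (adjusted p = 0.00618), 5.55 in late S (0.000257) and 3.69 in G2/M (0.0173). The early S call was lost without either early S array (adjusted p up to 0.419) and the G2/M call without any 1 of the G2/M arrays or CDT replicate 1 or 3 (up to 0.119), while that of late S held with any 1 array left out. CDKN1A, which encodes the CDK inhibitor p21, rose in late S against CDT by 3.88 ± 0.59 (adjusted p = 0.0123), a call lost without late S replicate 3 or CDT replicate 3 (adjusted p = 0.123 and 0.126). In both S arrests CDC25B overlapped the CDT arrays.

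Late G1 was also set against the groups that were not arrested. Against CDT, where 0.103% of genes were called, 2 of 8 mitotic entry drivers were called lower. PLK1 fell by 4.03 ± 0.55 (adjusted p = 0.00319) and FOXM1 by 2.87 ± 0.52 (adjusted p = 0.0313). The FOXM1 call was lost in 9 of 30 settings, without any 1 of the CDT arrays, CDT + DHT replicate 2 or late G1 replicate 2 or 3 among them. Against CDT + DHT (0.516% called), PLK1 fell by 4.89 ± 0.55 (adjusted p = 0.000521), FOXM1 by 3.34 ± 0.52 (adjusted p = 0.00562) and SFN by 3.33 ± 0.59 (adjusted p = 0.013). Here FOXM1 lost its call without CDT + DHT replicate 1 (adjusted p = 0.0635), and SFN without CDT + DHT replicate 1 or 2 or late G1 replicate 2 (up to 0.103). Fitted on the compared groups alone, none of these 5 differences passed, where 0 of all genes were called.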

How the data were processed

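RNA from 20 LNCaP samples in 7 groups was measured on Affymetrix human gene arrays after amplification with the NuGEN Ovation Pico kit, per the labels' protocols. Per the submitters' processing notes, Affymetrix Expression Console 1.1 was used, and the authors deposited probe set intensities. How probes were summarised and arrays normalized, and on which genome build, is not given in the sources used here. Intensities had the range of a linear scale and were used as log2(intensity + 1), a pseudocount that understates changes of dim genes. Features with 1 gene symbol were kept, 1 per gene, the brightest by mean.

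One fit with limma 3.58.1 in R 4.3.3 (lmFit, eBayes, a coefficient per group, all 20 arrays) gave two-sided tests of each arrest against CDT, CDT + DHT and the mean of the other 4 arrests, of CDT + DHT against CDT, and of 3 pairs of arrests, with Benjamini-Hochberg adjustment over 18417 genes and a threshold of 0.05. Levels carry an SD and differences an SE. Array number limits the precision. Nothing in the labels tells separate cultures from repeat measurements, so the p-values cover only spread between these arrays, which may be technical. The fit was tested on simulated data. Members, lists and alternatives were chosen with earlier results of these data known. The named genes were the members, up to 4 genes of a list that passed in a comparison and up to 2 that did not, and the 3 genes most like each member by Pearson's r among genes with a mean of at least 4. Motifs were searched in RefSeq windows of GRCh38.p14. Protein sequences were not analysed here.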

Additional observations from a re-analysis of the deposited data

How the results depend on the processing

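Alternatives were quantile normalization, centring, a pseudocount of 16, leaving out dim genes, averaging the features of a gene, a trended robust prior, array weights, the replicate block, a fit on the compared groups alone, 4 arrays left out, and each array left out in turn; late G1 left out of the other arrests was added after seeing the data. The count of members called was 2 in place of 1 with array weights in the test of 7 groups, in late G1 against CDT + DHT and against the other arrests, and 2 with a pseudocount of 16 in late G1 against CDT + DHT. It was 0 in place of 1 with only the compared groups in late G1 against CDT and against CDT + DHT, where 0 of all genes were called. It was 1 in place of 0 in late S against CDT + DHT with array weights, in G2/M against the other arrests with a pseudocount of 16, the dim filter, the robust prior or array weights, and in late G1 against early G1 with quantile normalization, the dim filter, the robust prior or array weights. With 1 array left out it ranged from 1 to 2 in late G1 against CDT + DHT and against the other arrests and from 0 to 1 in G2/M against the other arrests and in late G1 against early G1, and it did not change in the other comparisons. The 2 moves in late G1 and the G2/M one came without early G1 replicate 1, and late G1 against early G1 moved also without late S replicate 1.

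Of 3107 recomputed member results, 2 lost a call, 18 gained one and 0 called ones changed sign. Of the uncalled, 105 changed sign (WEE1 in early S against CDT, 1.11 to -0.84), and none passed in either setting. Of the 632 recomputed results of the 21 called pathway differences, 91 lost the call. Leaving out 1 array, CDC25B lay between -4.77 and -4.19 for late G1 set against the other arrests, -5.00 and -4.43 against CDT and -4.92 and -4.34 against CDT + DHT.

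No pairing of arrays by replicate number was seen, though the within-group component may hide a weak one. Same-numbered arrays had deviations with r of -0.72 to 0.71 (median -0.03 over 57 pairs), against a median of 0.02 over 114 pairs of other numbers. For 6 of 20 arrays the mean r with arrays of other groups was highest for their own number. With the replicate block CDC25B in late G1 differed by -4.49 from the other arrests (adjusted p = 0.000172), and the count of members called was the same in 21 of 21 comparisons. The block ended 6 of the 21 called pathway differences: CCNB1 and CCNB2 in late G1 and AURKA in G2/M against the other arrests, AURKA in G2/M and SFN in late S against CDT + DHT, and FOXM1 in late G1 against CDT (adjusted p of 0.0517 to 0.0804). The count over all genes was 32 in place of 77 for the 7 groups, 46 in place of 95 in late G1 against CDT + DHT, and 2 in place of 81 in G2/M against CDT + DHT.

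Over the alternatives the counts over all genes, highest with array weights in the tests of 7 groups and 5 arrests, ran from 33 to 406 in late G1 against the other arrests (130 as reported), from 0 to 82 against CDT (19), from 0 to 1079 against CDT + DHT (95), from 29 to 1073 over 7 groups (77), from 14 to 357 over 5 arrests (47), from 0 to 1776 in late S against CDT + DHT (13), from 0 to 205 in late S against CDT (18), from 3 to 58 in G2/M against CDT (20), from 0 to 1669 in G2/M against CDT + DHT (81), from 1 to 870 in late S against the other arrests (5), from 0 to 25 in G2/M against the other arrests (5) and from 0 to 21 in late G1 against early G1 (0). The same ranges were 0 to 13 in early G1 against CDT (1), 0 to 23 in early S against CDT (6), 0 to 15 in early S against CDT + DHT (1), 0 to 4 in late S against early S (1), and, with 0 as reported, 0 to 12 in CDT + DHT against CDT, 0 to 10 in early G1 against CDT + DHT, 0 to 9 in early G1 and 0 to 3 in early S against the other arrests, and 0 to 2 in G2/M against early S. Late G1 intensities of CDC25B lie near the floor, so the size of its fall, unlike its direction, depends on the pseudocount.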
